A study of Arabidopsis thaliana with 9 samples.

Results

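The comparison described here is that of emb1579-3 seedlings with Col-0 seedlings of Arabidopsis thaliana, across all nuclear genes. It compares 5 of the 9 RNA-seq libraries of the series: 3 of emb1579-3 and 2 of the wild type Col-0. The 3 libraries of a second line, emb1579-1, also entered the fit, for the shared estimate of spread. The 3 columns of the count table taken as emb1579-3 carry another number in their name than the labels give for that line, and were assigned by elimination of the other names. Col-0 replicate 3 held 1.18 M counts, far fewer than any other library, and is shown only as a check. The series asked about root growth genes under EMB1579, with 3 libraries for each of Col-0, emb1579-1 and emb1579-3, which the submitters call biological replicates. Every library came from whole seedlings, roots and shoots together, grown for 6 days at 20 °C after 3 days of stratification on diluted Murashige and Skoog medium, with no treatment named. The labels give no lesion, zygosity or rescue line for emb1579-3, and it is 1 allele. Whether the libraries come from separate cultures is not stated beyond the word replicate, so p-values measure the spread between these libraries.

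EMB1579, also known as RSA1, encodes a nuclear protein that binds calcium ions. It is known for its partner RITF1, a bHLH transcription factor of the salt response, and for nuclear condensates that draw in proteins of splicing and of chromatin. Null alleles are embryo lethal, hence the gene's name, and seedlings with lowered function have short roots. The gene lists below cover root tissues, mineral nutrition, hormones, the clock, the cell cycle and RNA processing.

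The EMB1579 transcript itself was measured first. The gene (AT2G03150) lies at chr2:951888-959236 on the plus strand of TAIR10.1 and overlaps no other annotated gene. Its level, in CPM (nuclear counts scaled to library size with edgeR), was 93.6 and 94.5 CPM in Col-0 and 4.06, 2.08 and 2.17 CPM in emb1579-3. The raw counts were 1513 and 1823 in Col-0 and 60, 26 and 34 in emb1579-3, so the line kept a small amount of transcript in every library. The groups do not overlap, and the log2 fold change was -5.07 (SE 0.15, adjusted p = 2.4e-12) by edgeR's quasi-likelihood test with Benjamini-Hochberg adjustment over all 20434 nuclear genes tested, which is a 33.6-fold lower level. In the 3 libraries labelled emb1579-1 the log2 fold change was -0.03. Those libraries entered the fit for the shared spread, so each SE and adjusted p given here rests on them too. Their own values appear below as a second line, measured against the same Col-0 libraries or against emb1579-3.

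The 5 libraries held 24.6 to 37.5 M counts, of which 12.6 to 19.0 M lay on nuclear genes, because organelle genes took 46.1% to 49.6%. Col-0 replicate 2 stood apart in silent genes: 1644 nuclear loci had no count there, against 9418 to 10215 in the other 7 libraries with full depth. Of 5732 loci at 0 in those 7 libraries, 4391 had counts in Col-0 replicate 2, with a median of 4. Genes near the detection limit are therefore the least certain. Col-0 replicate 3 correlated with other libraries at no more than 0.373 (Pearson, log2 CPM), against at least 0.970 among the other 8. In that library 65.9% of nuclear counts lay on genes that overlap a gene on the opposite strand, against 27.5% to 28.3% in the 5 libraries. Marker genes fitted the labelled tissue. The summed level of 8 shoot markers was 27276 and 31697 CPM in Col-0 and 27334 to 30229 CPM in emb1579-3, and 1 of the 8 was called higher. A few highly expressed photosynthesis genes made up most of that sum. Flower, seed and pollen markers were under 1 CPM each in all 5 libraries. The summed level of 8 root markers was 2329 and 2795 CPM in Col-0 and 1126 to 1527 CPM in emb1579-3, and 4 of the 8 were called lower. PYK10 made up most of that sum, and the other 7 markers summed to 118 and 128 CPM in Col-0 and 88.4 to 104 CPM in emb1579-3. Of the 4 not called, NRT2.1 was at 1.67 and 5.18 CPM in Col-0 and 4.33, 6.56 and 6.77 CPM in emb1579-3 (log2 fold change 0.75, SE 0.38, adjusted p = 0.22). In whole seedlings, fewer cells of a type and less RNA per cell cannot be told apart.

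At an adjusted p under 0.05, 2043 genes were higher in emb1579-3 (10% of those tested) and 2153 were lower (10.5%). Counts of list members called below are to be read beside these shares. At least a 2-fold change was seen for 358 of the higher and 646 of the lower genes, and at least a 4-fold change for 102 and 155. Of 2504 genes with a mean under 2 CPM, 3% were higher and 9.58% lower. Of 10526 genes at 10 to 100 CPM, 11.9% were higher and 9.99% lower. The part of the low counts in Col-0 replicate 2 in the falls of weakly expressed genes was not tested. All 3 emb1579-3 libraries lay above both Col-0 libraries for 2038 of the higher genes, and below both for 2147 of the lower ones. The median log2 fold change was -0.005 over all genes tested, 0.50 over the genes called higher and -0.63 over those called lower. Without Col-0 replicate 1 the numbers were 1304 higher and 3060 lower, with a lone Col-0 library. With Col-0 replicate 3 added, 69 were higher and 71 lower.

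**Figure D1:**
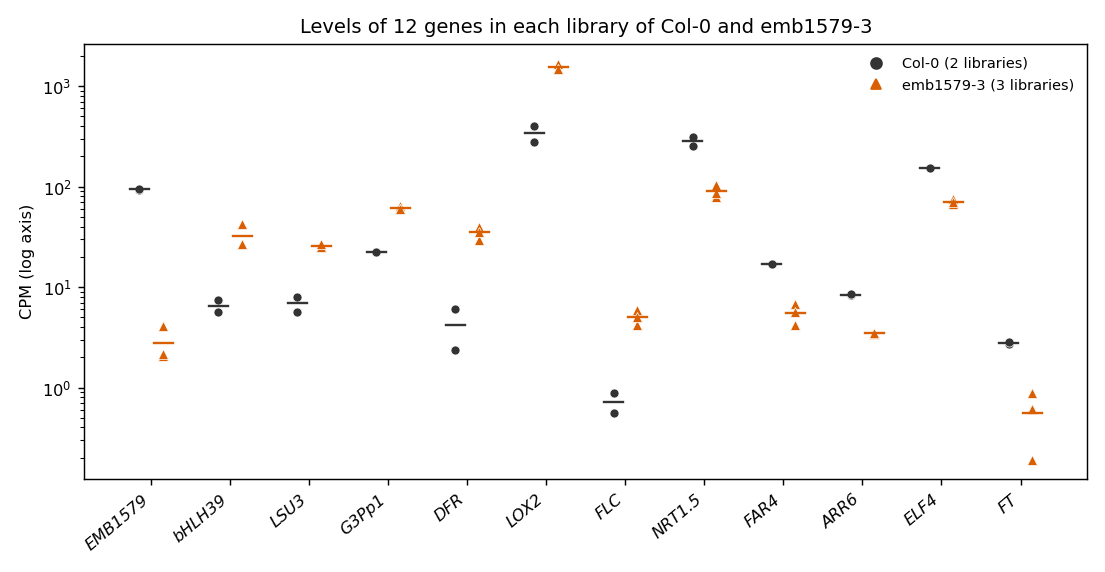
Levels of 12 genes in the 2 Col-0 libraries (dark circles) and the 3 emb1579-3 libraries (orange triangles), in CPM on a log axis, with a bar at each group mean. For each of the 12 genes the 2 groups do not overlap, and EMB1579 fell from 93.6 and 94.5 CPM to between 2.08 and 4.06 CPM.

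The genes with the lowest fold changes included several that were close to silent in the mutant. CYP76G1, a cytochrome P450 gene, was at 8.23 and 7.26 CPM in Col-0 and had no count in any of the 3 emb1579-3 libraries. Against a floor of 3 counts over the group, its level was at least 111-fold lower. CYP93D1, another P450 gene, was at 10.6 and 7.05 CPM in Col-0 and 0.203, 0 and 0 CPM in emb1579-3, and its neighbour CYP712A2 on chromosome 5 was at 3.4 and 2.9 CPM in Col-0 and 0, 0 and 0.0639 CPM in emb1579-3. Both were at or near 0 in every mutant library and clearly present in both Col-0 libraries. The fitted log2 fold changes were -6.82 (SE 0.52, adjusted p = 1.1e-07) for CYP93D1 and -6.64 (SE 0.71, adjusted p = 2.8e-06) for CYP712A2, values that rest on a few counts in the mutant. CYP93D1 was at -10.03 without emb1579-3 replicate 1 and -6.22 without emb1579-3 replicate 3, and CYP712A2 at -8.53 without emb1579-3 replicate 3. In the libraries labelled emb1579-1 they were -8.04 and -6.56. Of 177 P450 genes tested, 17 were higher and 44 lower, so 24.9% of them were lower, against 10.5% of all genes tested. With 1 of the 5 libraries left out, 31 to 38 were lower. TPS03, a terpene synthase gene, stood at 9.03 and 13 CPM in Col-0 and 1.22, 0.799 and 0.639 CPM in emb1579-3, a log2 fold change of -3.63 (SE 0.29, adjusted p = 1.3e-07). CYP78A8 was at 8.66 and 7.83 CPM in Col-0 and 0.609, 0.48 and 1.28 CPM in emb1579-3. For each of these P450 and terpene synthase genes, every emb1579-3 library was below both Col-0 libraries.

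Among the rises, NDB4, a gene of an alternative NAD(P)H dehydrogenase of the mitochondrial inner membrane, went from 0 and 1.19 CPM in Col-0 to 6.84, 7.28 and 7.47 CPM in emb1579-3. It was almost undetected in the wild type and evenly present in the mutant, with a log2 fold change of 3.48 (SE 0.60, adjusted p = 0.0044). It was 2.6 without Col-0 replicate 1 and 9.67 without Col-0 replicate 2, where the lone Col-0 library has no count and the fitted value is no measure of size. Of 20 alternative respiration genes tested, 7 were higher and 2 lower, against 10% and 10.5% of all genes tested. The lower calls were thus near the share over all genes. They were 0 without emb1579-3 replicate 1 and 1 without emb1579-3 replicate 2 or 3. The alternative oxidase gene AOX1A was among the lower genes at -0.26 (SE 0.08). A MATE family transporter gene, AT2G04050, was singled out after its values were seen. It was at 0 and 0.829 CPM in Col-0 and 9.48, 11.5 and 10.4 CPM in emb1579-3. Likewise AT2G18190, annotated as a P-loop hydrolase, was at 0 and 0.311 CPM in Col-0 and 7.31, 6.56 and 6.58 CPM in emb1579-3, and AT4G04990, annotated as a DUF761 protein, was at 7.3 and 5.96 CPM in Col-0 and 0.474, 0.0799 and 0.256 CPM in emb1579-3. The groups do not overlap for any of the 3, with log2 fold changes of 4.52 (SE 0.47), 5.27 (SE 0.42) and -4.53 (SE 0.39). AT2G04050 was at 3.66 without Col-0 replicate 1 and 10.21 without Col-0 replicate 2, AT2G18190 at 4.43 and 9.60 (the larger values again against a lone Col-0 library at 0), and AT4G04990 at -5.16 without emb1579-3 replicate 1. In the libraries labelled emb1579-1, the log2 fold changes were 3.93, 4.71 and -3.94.

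More iron genes rose than fell, with all 4 subgroup Ib bHLH factor genes among the rises. Plants such as Arabidopsis take up iron by acidifying the soil, reducing ferric iron at the root surface and importing the ferrous ion. Subgroup Ib bHLH factors and FIT (FRU in the annotation) switch on that uptake, and BTS, an E3 ligase, holds the response back. Of 38 iron genes tested, 16 were higher and 4 lower, with a median log2 fold change of 0.81 against -0.005 over all genes tested. Over all genes 10% were higher and 10.5% lower, so the lower calls were near that share. bHLH39 was at 7.42 and 5.65 CPM in Col-0 and 42.7, 26.6 and 26.6 CPM in emb1579-3, and BHLH100 at 10.1 and 3.21 CPM in Col-0 and 69.7, 37.3 and 40.1 CPM in emb1579-3. Every mutant library was above both Col-0 libraries for each, and for BHLH100 the Col-0 libraries themselves lay far apart. The log2 fold changes were 2.3 (SE 0.23, adjusted p = 7.6e-05) for bHLH39, 3.47 (SE 0.42, adjusted p = 0.0036) for bHLH38, 2.92 (SE 0.55, adjusted p = 0.019) for BHLH100 and 1.88 (SE 0.28, adjusted p = 0.00075) for BHLH101. BHLH100 was at 3.95 without Col-0 replicate 1 and at 2.27 without Col-0 replicate 2, and BHLH101 at 2.49 without Col-0 replicate 1. bHLH38 and BHLH101 each overlap another gene.

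Other members of the iron list followed their own course. AT1G47395, an uncharacterized protein gene of the list at chr1:17382998-17383830, was at 2.1 and 1.4 CPM in Col-0 and 24.6, 12.6 and 15.9 CPM in emb1579-3, a log2 fold change of 3.36 (SE 0.31, adjusted p = 1.6e-05). The ferric reductase gene FRO2 was at 18.6 and 12.4 CPM in Col-0 and 30.2, 40.9 and 29.8 CPM in emb1579-3, and the oligopeptide transporter gene OPT3, which loads iron into the phloem, was at 156 and 100.4 CPM in Col-0 and 319, 275 and 315 CPM in emb1579-3. Both were higher in all 3 mutant libraries, with log2 fold changes of 1.12 (SE 0.25, adjusted p = 0.013) and 1.24 (SE 0.21, adjusted p = 0.0048). The vacuolar iron exporter gene NRAMP4 was at 47.4 and 43.5 CPM in Col-0 and 102, 87.8 and 83.2 CPM in emb1579-3, and the nicotianamine synthase gene NAS4 at 7.86 and 6.79 CPM in Col-0 and 18.4, 17 and 18.9 CPM in emb1579-3, log2 fold changes of 1.0 (SE 0.11, adjusted p = 3e-06) and 1.31 (SE 0.13, adjusted p = 1.5e-06). BTS rose by 1.03 (SE 0.21) on the log2 scale, from 344 and 216 CPM in Col-0 to 645, 529.7 and 542 CPM in emb1579-3. In the other direction, NAS3, which encodes another nicotianamine synthase, was at 5.82 and 6.22 CPM in Col-0 and 3.18, 1.92 and 1.98 CPM in emb1579-3 and had a log2 fold change of -1.34 (SE 0.23, adjusted p = 0.00046). FRU, whose product partners the Ib factors, was also lower, at -0.95 (SE 0.23, adjusted p = 0.0063), a call lost without Col-0 replicate 1 (adjusted p = 0.094). The ferritin gene FER1, which stores iron, was at 15.5 and 45 CPM in Col-0 and 11.8, 13.8 and 14.1 CPM in emb1579-3 and did not pass the test (log2 fold change -1.2, SE 0.45, adjusted p = 0.13), with the Col-0 libraries far apart. IRT1, the root iron importer gene, was at 19.4 and 12.1 CPM in Col-0 and 26.9, 36.8 and 27.5 CPM in emb1579-3 and did not pass the test either. Leaving out 1 library gave 13 to 17 higher calls in this list.

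Many sulfur deficiency genes rose, those of assimilation among them. Sulfate is taken up by SULTR transporters, activated by ATP sulfurylases (APS) and reduced by APS reductases (APR), and the LSU and SDI genes are markers of low sulfur. Of 28 genes tested, 15 were higher and 2 lower (1 without Col-0 replicate 1 or emb1579-3 replicate 2 or 3), with a median log2 fold change of 0.47. LSU3 was at 5.69 and 8.03 CPM in Col-0 and 24.9, 25.1 and 26.9 CPM in emb1579-3 and ATSDI1 at 7.3 and 8.45 CPM in Col-0 and 34.1, 31.2 and 28.5 CPM in emb1579-3. Neither gene has a mutant library near the Col-0 range, and the log2 fold changes were 1.89 (SE 0.17, adjusted p = 6.9e-07) and 1.98 (SE 0.17, adjusted p = 2.6e-06). All 3 APS reductase genes rose, APR1 by 0.93 (SE 0.13), APR2 by 0.92 (SE 0.09) and APR3 by 1.1 (SE 0.10), with APR3 at 144 and 185 CPM in Col-0 and 357, 367 and 339 CPM in emb1579-3. AT5G26220, annotated as a ChaC-like protein, the family that breaks down glutathione, rose by 2.06 (SE 0.20), and LSU1 by 2.22 (SE 0.27). Vacuolar sulfate exporter genes were also higher, SULTR4;1 at 0.48 (SE 0.09) and SULTR4;2 at 0.87 (SE 0.13). The root uptake transporter SULTR1;2 was lower at -0.37 (SE 0.11, adjusted p = 0.022), a call lost without Col-0 replicate 1 and without emb1579-3 replicate 2 or 3. APS4 was lower at -0.83 (SE 0.14, adjusted p = 0.0016), from 126 and 89.8 CPM in Col-0 to 64, 61.1 and 56.6 CPM in emb1579-3. No member of the list differed between the lines. The list's counts stand beside 10% higher and 10.5% lower over all genes tested.

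Many phosphate starvation genes rose, with members of transport, phosphatases and lipid remodelling among them. The factor PHR1 binds the short motif P1BS (GNATATNC) in the promoters of many of these genes, and SPX proteins restrain PHR1. Of 31 genes tested, 14 were higher and 3 lower, with a median log2 fold change of 0.42. The shares over all genes tested were 10% higher and 10.5% lower, and the lower calls were near theirs. The phosphatase gene PS2 is shown because its promoter holds this motif. Among the list's genes called higher, with the motif and with no overlapping gene, it had the smallest p. Its promoter, the 250 bases before the annotated start (chr1:27466349-27466598, minus strand, TAIR10.1 genome of RefSeq), holds 1 match to P1BS, written in capitals, whose first base lies 217 bases before the start.
PS2: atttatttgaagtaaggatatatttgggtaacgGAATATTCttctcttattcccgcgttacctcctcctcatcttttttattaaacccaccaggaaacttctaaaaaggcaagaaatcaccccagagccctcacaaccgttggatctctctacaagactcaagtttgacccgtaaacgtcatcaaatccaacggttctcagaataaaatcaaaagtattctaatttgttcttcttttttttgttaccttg
P1BS was searched as GNATATNC on both strands. It was present in 29.0% of the 31 promoters of the list and in 5.42% of 20413 promoters of tested genes of the same length. Among the 14 genes called higher and the 14 not called the share was 28.6% in each. A match is a description of the letters only.

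PS2 itself was at 0.619 and 1.76 CPM in Col-0 and 12.3, 10.8 and 18.1 CPM in emb1579-3. G3Pp1, a glycerol-3-phosphate transporter gene, was at 22.5 and 22.6 CPM in Col-0 and 64.8, 59.2 and 59.8 CPM in emb1579-3, and the acid phosphatase gene PAP17 at 15.3 and 16.8 CPM in Col-0 and 68.5, 50.8 and 47.2 CPM in emb1579-3. All 3 genes were higher in every mutant library, with log2 fold changes of 3.48 (SE 0.53, adjusted p = 0.0046), 1.44 (SE 0.09, adjusted p = 1.4e-08) and 1.78 (SE 0.17, adjusted p = 1.8e-05). PS2 was at 4.46 without Col-0 replicate 2. The phosphate importer gene PHT1;4 was at 7.98 and 9.85 CPM in Col-0 and 33.6, 19.7 and 23.57 CPM in emb1579-3, and PHO1;H1, a homologue of the xylem loader PHO1, at 7.79 and 12 CPM in Col-0 and 28, 26.3 and 25.9 CPM in emb1579-3. The feedback gene SPX1 rose by 1.03 (SE 0.17) and SQD1, of sulfolipid synthesis, by 0.74 (SE 0.08). The xylem loader gene PHO1 itself was lower at -0.35 (SE 0.10, adjusted p = 0.015), and so was PHO2, whose product removes phosphate transporters, from 239 and 237 CPM in Col-0 to 184, 167 and 187 CPM in emb1579-3 (log2 fold change -0.41, SE 0.09, adjusted p = 0.0022). PHR1 did not pass the test (log2 fold change -0.20, SE 0.10, adjusted p = 0.15). Leaving out emb1579-3 replicate 2 left 1 lower call in the list, and the higher calls were 12 to 14 in the fits that leave out 1 library. Values of G3Pp1 and PS2 in the libraries labelled emb1579-1 were 1.49 and 3.26 on the log2 scale.

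More nitrate genes fell than rose. Of 26 tested, 4 were higher and 10 lower, against 10% and 10.5% of all genes tested, with a median log2 fold change of -0.18. NRT1.5, which loads nitrate into the xylem of the root, was at 309 and 255 CPM in Col-0 and 78.9, 86 and 104 CPM in emb1579-3. It fell in all 3 mutant libraries with a log2 fold change of -1.65 (SE 0.11, adjusted p = 3.2e-08). The ammonium importer gene AMT1;3 fell from 73 and 52.1 CPM in Col-0 to 21.6, 23.1 and 21.9 CPM in emb1579-3, -1.49 (SE 0.14, adjusted p = 4.9e-06). The nitrate reductase gene NIA1 was lower at -0.73 (SE 0.11) and the nitrite reductase gene NIR1 at -0.44 (SE 0.09), and NIA2 did not pass the test (log2 fold change -0.10, SE 0.10, adjusted p = 0.53). NRT1.8, which retrieves nitrate from the xylem, was at 1.55 and 2.12 CPM in Col-0 and 12.4, 17.3 and 9.26 CPM in emb1579-3 and rose by 2.79 (SE 0.38, adjusted p = 0.0013) on the log2 scale. NRT1.5 and NRT1.8 thus moved in opposite directions, each in all 3 libraries, and each overlaps another gene. With Col-0 replicate 1 left out, 5 nitrate genes were called lower. Of 29 copper and zinc genes tested, 5 were higher and 10 lower, beside the same shares of 10% and 10.5% over all genes. HMA3, a vacuolar zinc and cadmium pump gene, was at 2.29 and 2.44 CPM in Col-0 and 0.406, 0.72 and 0.575 CPM in emb1579-3 (log2 fold change -2.06, SE 0.40, adjusted p = 0.0011), and the zinc transporter gene ZIP2 was lower, at -1.06 (SE 0.17). Of the pump genes for moving zinc to the shoot, HMA2 rose by 0.73 (SE 0.14) and HMA4 was lower, at 138 and 124 CPM in Col-0 and 88.2, 88.1 and 108 CPM in emb1579-3 (log2 fold change -0.46, SE 0.10, adjusted p = 0.0021). Without Col-0 replicate 1, 6 copper and zinc genes were lower, and without Col-0 replicate 2, 3 were higher.

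**Figure D2:**
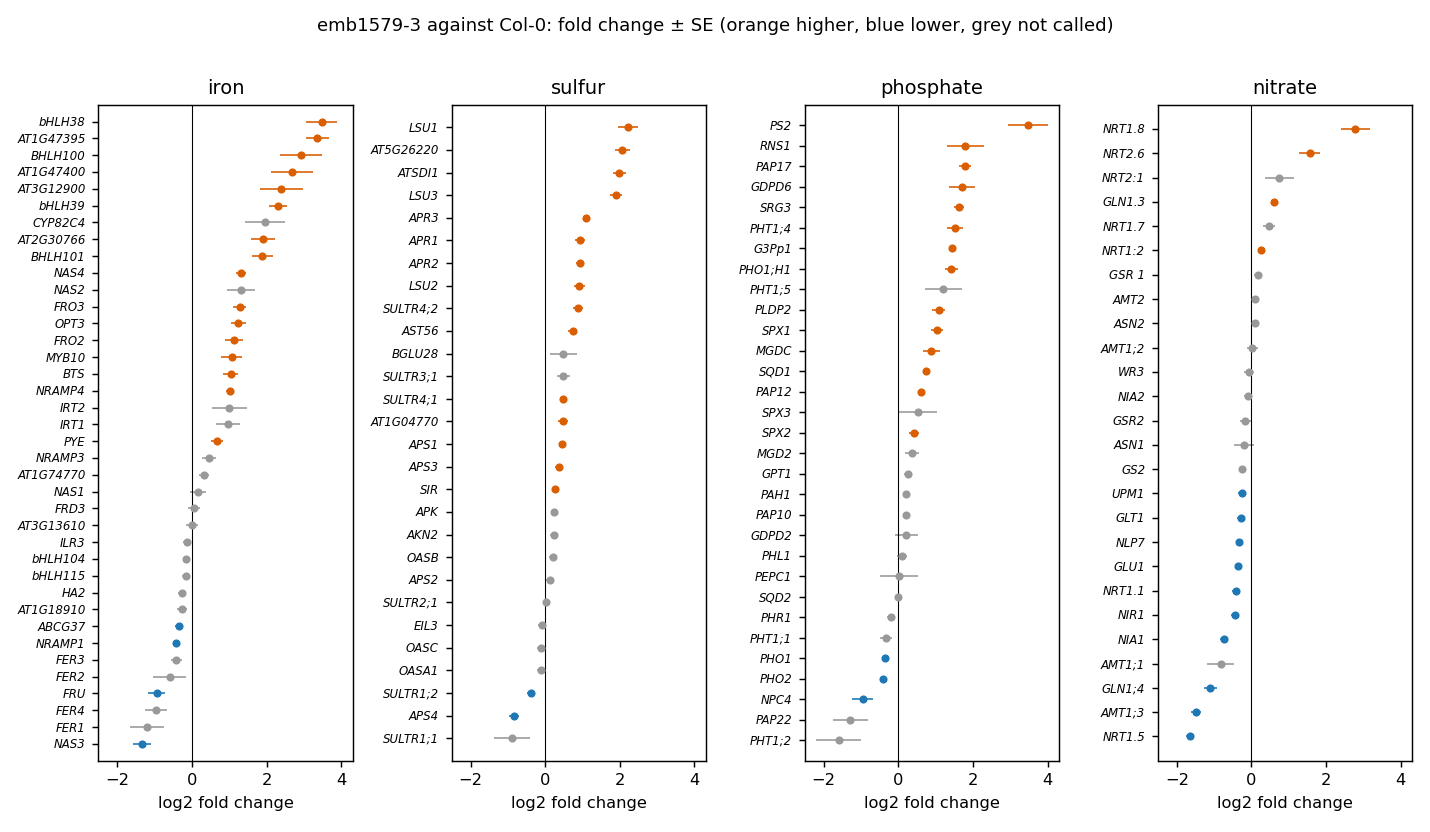
Log2 fold changes of every tested member of the iron, sulfur, phosphate and nitrate lists in emb1579-3 against Col-0, with SE as bars. Orange points are genes called higher, blue points genes called lower and grey points genes that did not pass the test, with 16, 15, 14 and 4 higher and 4, 2, 3 and 10 lower.

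Most genes of the root's internal barriers fell. The endodermis seals the root's core with the Casparian strip, laid down on CASP proteins, and with suberin, a polyester made by GPAT, CYP86 and FAR enzymes and exported by ABCG transporters. Of 28 genes of this list, 0 were higher and 18 lower, against 10% and 10.5% of all genes tested, with a median log2 fold change of -1.01. FAR4, a fatty acyl reductase gene, was at 17 and 17.1 CPM in Col-0 and 6.84, 5.6 and 4.15 CPM in emb1579-3, and GPAT5, an acyltransferase gene of suberin, at 11.6 and 9.48 CPM in Col-0 and 3.39, 3.76 and 3.51 CPM in emb1579-3. CYP86A1, the fatty acid hydroxylase gene of root suberin, was at 47.3 and 43.5 CPM in Col-0 and 19, 16.1 and 19.9 CPM in emb1579-3. All 3 fell in every mutant library, with log2 fold changes of -1.63 (SE 0.18, adjusted p = 3.4e-06), -1.56 (SE 0.18, adjusted p = 7.2e-06) and -1.3 (SE 0.14, adjusted p = 2e-05). The transporter gene ABCG6 was lower at -1.38 (SE 0.23), and the suberin regulator MYB93 at -1.47 (SE 0.27). Of the Casparian strip genes, CASP1 was at 15.6 and 13 CPM in Col-0 and 7.45, 6.32 and 6.58 CPM in emb1579-3 (log2 fold change -1.07, SE 0.22, adjusted p = 0.0036). CASP2 was called lower too, at -1.1 (SE 0.25), but lost its call without Col-0 replicate 1. MYB36, the factor that switches on the CASP genes, was at 5.51 and 5.39 CPM in Col-0 and 7.65, 3.44 and 6.0 CPM in emb1579-3 and did not pass the test (log2 fold change 0.08, SE 0.26, adjusted p = 0.88). Nor did the receptor gene GSO1 (log2 fold change -0.36, SE 0.18, adjusted p = 0.18) or KCS20, a fatty acid elongase gene (log2 fold change -0.01, SE 0.08, adjusted p = 0.97).

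Beside this list, the root marker PYK10, a beta-glucosidase gene of root cells, was at 2668 and 2211 CPM in Col-0 and 1429, 1100 and 1022 CPM in emb1579-3, a log2 fold change of -1.04 (SE 0.15, adjusted p = 0.00047). The root hair genes COBL9 and EXPA7 did not pass the test, with log2 fold changes of 0.07 and -0.01. RHD2, also of root hairs and among the 8 root markers, was lower. It was at 21.3 and 18.9 CPM in Col-0 and 15.2, 13.7 and 12.7 CPM in emb1579-3 (log2 fold change -0.54, SE 0.13, adjusted p = 0.0074). CASP1 and PHO1, named above, are themselves among the 8 root markers. The part of root content in these falls was not tested. Leaving out 1 library left 12 to 16 barrier genes lower. Of 13 laccase genes, which polymerise lignin and related phenolics, 1 was higher and 7 lower, with a median log2 fold change of -0.75. The shares over all genes tested were 10% higher and 10.5% lower. LAC7 was at 87 and 63.7 CPM in Col-0 and 18.6, 15.7 and 14.1 CPM in emb1579-3 (log2 fold change -2.22, SE 0.24, adjusted p = 0.00076), and LAC2 at 1.92 and 2.59 CPM in Col-0 and 0.271, 0.24 and 0.447 CPM in emb1579-3 (log2 fold change -2.77, SE 0.46, adjusted p = 0.00028). Of 33 xylem and secondary wall genes, 0 were higher and 11 lower, beside the same shares, with a median of -0.43. IRX12, a laccase gene of vessels, was at 21.7 and 19.7 CPM in Col-0 and 14.2, 11.1 and 10.7 CPM in emb1579-3 (log2 fold change -0.78, SE 0.14, adjusted p = 0.00075), and XCP1, a protease gene of dying vessels, was lower at -0.59 (SE 0.10). The cellulose synthase genes CESA4 and IRX3 of secondary walls were lower by smaller amounts, at -0.34 (SE 0.10) and -0.45 (SE 0.13). The xylem genes called lower were 5 without Col-0 replicate 1 and 6 without emb1579-3 replicate 2. The 1 laccase rise was lost without either Col-0 library and without emb1579-3 replicate 1 or 3. Of 29 aquaporin genes, 2 were higher and 9 lower, beside shares of 10% and 10.5% over all genes tested. TIP2;3, a root tonoplast channel gene, was at 14.7 and 17.9 CPM in Col-0 and 6.5, 3.68 and 3.51 CPM in emb1579-3 (log2 fold change -1.83, SE 0.20, adjusted p = 8.2e-06). The 2 higher calls fell to 0 without Col-0 replicate 1, emb1579-3 replicate 2 or emb1579-3 replicate 3, and to 1 without Col-0 replicate 2. The lower calls were 5 without Col-0 replicate 1 or emb1579-3 replicate 3.

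**Figure D3:**
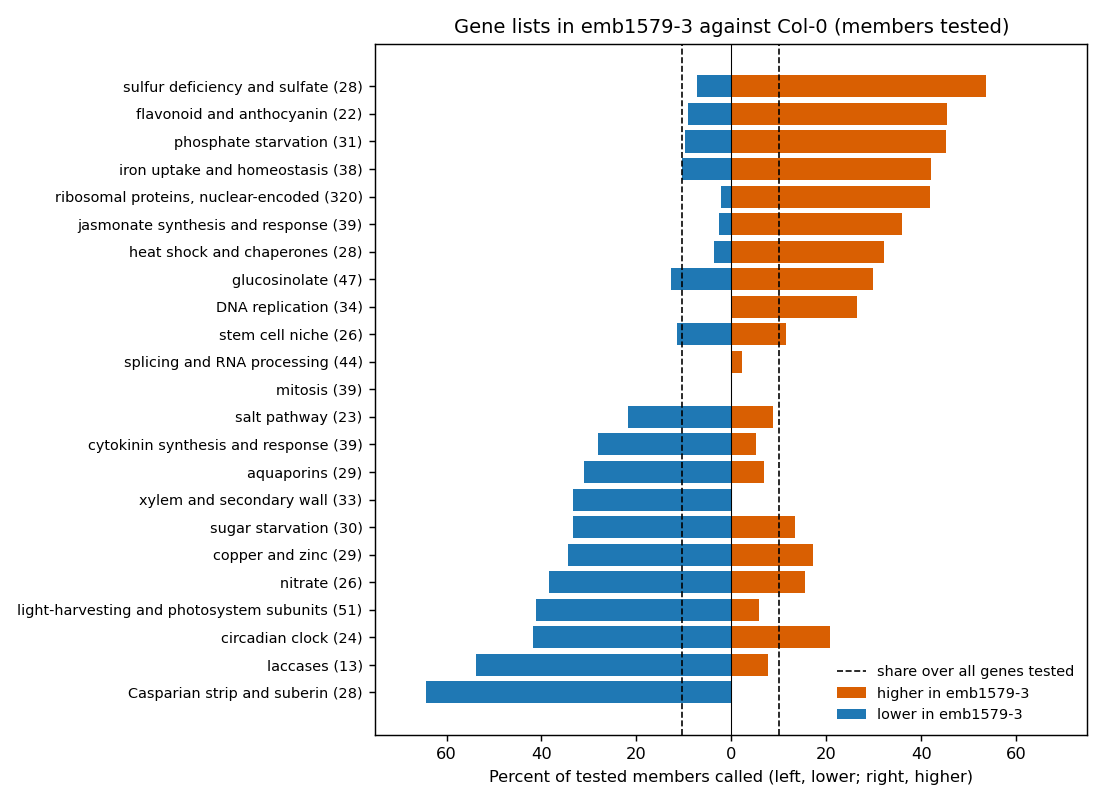
Percent of tested members called lower (blue, left) and higher (orange, right) in 23 gene lists, with the number tested in brackets and dashed lines at the shares over all genes tested, 10.5% lower and 10% higher. The barrier list has 64.3% of its members lower and none higher, and the sulfur list 53.6% higher.

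Several cytokinin response genes fell. Type A response regulators (ARR) are rapidly switched on by cytokinin, CYP735A enzymes make trans-zeatin, and WOL is a cytokinin receptor of the root vasculature. Of 39 genes tested, 2 were higher (1 without Col-0 replicate 1 or emb1579-3 replicate 3) and 11 lower, with a median log2 fold change of -0.10. The shares over all genes tested were 10% higher and 10.5% lower. ARR6 was at 8.29 and 8.5 CPM in Col-0 and 3.52, 3.44 and 3.51 CPM in emb1579-3, and RR5 at 11.8 and 15.1 CPM in Col-0 and 6.3, 5.36 and 6.52 CPM in emb1579-3. ARR4 was at 45.6 and 50.8 CPM in Col-0 and 30.5, 27.1 and 25.6 CPM in emb1579-3. All 3 were lower in every mutant library, with log2 fold changes of -1.26 (SE 0.18, adjusted p = 8.7e-05), -1.15 (SE 0.17, adjusted p = 0.00013) and -0.80 (SE 0.10, adjusted p = 2.7e-05). The receptor gene WOL fell from 50 and 49.9 CPM in Col-0 to 30.1, 26.3 and 35.5 CPM in emb1579-3, -0.70 (SE 0.10, adjusted p = 0.0001), while the receptor genes HK2 and HK3 did not pass the test, at -0.05 (SE 0.08) and -0.17 (SE 0.09). CYP735A2 was at 3.09 and 3.99 CPM in Col-0 and 1.35, 1.2 and 1.41 CPM in emb1579-3 (log2 fold change -1.42, SE 0.31, adjusted p = 0.0029). LOG8, for a cytokinin-activating enzyme, was higher at 0.60 (SE 0.10) and LOG7 of the same family lower at -1.1 (SE 0.16).

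Jasmonate synthesis genes rose at several steps of the pathway from linolenic acid, LOX2, AOS and AOC1 among them. Of 39 genes of synthesis and response, 14 were higher and 1 lower, with a median log2 fold change of 0.28. LOX2, the chloroplast lipoxygenase gene, was at 277 and 400.5 CPM in Col-0 and 1672, 1469 and 1490 CPM in emb1579-3. AOS was at 183 and 172 CPM in Col-0 and 322, 340.0 and 330.2 CPM in emb1579-3, and AOC1 at 6.56 and 4.35 CPM in Col-0 and 30.8, 23 and 21.3 CPM in emb1579-3. The 3 genes were higher in every mutant library, with log2 fold changes of 2.19 (SE 0.37, adjusted p = 0.012), 0.90 (SE 0.13, adjusted p = 0.00019) and 2.21 (SE 0.20, adjusted p = 3.4e-06). Without Col-0 replicate 1 LOX2 lost its call (1.96, adjusted p = 0.067), and 9 genes of the list were higher and 2 lower. The AOC genes are close copies of each other, so their single values are uncertain. The receptor gene COI1 and the factor gene MYC2 did not pass the test, at -0.05 (SE 0.09) and 0.04 (SE 0.08). JAZ4, a repressor gene, was the 1 lower gene, at 3.77 and 2.49 CPM in Col-0 and 1.35, 0.799 and 0.767 CPM in emb1579-3. VSP2, a storage protein gene of the response, was at 109 and 151 CPM in Col-0 and 328, 300.0 and 343 CPM in emb1579-3 and did not pass the test (log2 fold change 1.31, SE 0.45, adjusted p = 0.11). The defensin genes PDF1.2 and PDF1.2c, close copies whose reads may be shared, were each higher: PDF1.2 was at 8.4, 8.95 and 8.05 CPM in emb1579-3 and PDF1.2c at 5.48, 5.6 and 5.24 CPM in emb1579-3, against at most 1.14 CPM in Col-0. Without Col-0 replicate 2 PDF1.2 was at 4.48, and PDF1.2c then stands against a library with no count. ACS7, a gene of ethylene precursor synthesis, was at 1.18 and 2.49 CPM in Col-0 and 11.8, 8.47 and 7.6 CPM in emb1579-3 (log2 fold change 2.31, SE 0.26, adjusted p = 1.3e-05), and 2.98 without Col-0 replicate 2. Of 26 ethylene genes, 7 were higher and 1 lower, and 3 were higher without Col-0 replicate 2, 4 without emb1579-3 replicate 1 or 2, and 2 lower without Col-0 replicate 1. For the jasmonate and ethylene lists alike, the shares over all genes tested were 10% higher and 10.5% lower. ALD1, whose product makes pipecolic acid in systemic resistance, was at 2.91 and 3.63 CPM in Col-0 and 0.339, 0.40 and 0.192 CPM in emb1579-3 (log2 fold change -3.39, SE 0.51, adjusted p = 0.00011).

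Anthocyanin genes of the late pathway rose. The early enzyme CHS (TT4) feeds both colourless flavonols and the red anthocyanins, while DFR, LDOX and the glycosyltransferase UF3GT act later, on the way to anthocyanins, under the factors PAP1 and TT8. Of 22 genes tested, 10 were higher and 2 lower, with a median log2 fold change of 0.27, and 10 were higher in each fit that left out 1 library, with 1 lower without emb1579-3 replicate 3 and 3 lower without Col-0 replicate 1. Over all genes tested 10% were higher and 10.5% lower, so the 2 lower calls were near that share. DFR was at 2.35 and 6.12 CPM in Col-0 and 40, 29.6 and 35.5 CPM in emb1579-3, and LDOX at 3.28 and 6.17 CPM in Col-0 and 39.1, 33 and 41.5 CPM in emb1579-3. UF3GT was at 1.79 and 3.21 CPM in Col-0 and 9.55, 8.71 and 9.52 CPM in emb1579-3. For all 3, each mutant library lay well above both Col-0 libraries, with log2 fold changes of 3.01 (SE 0.33, adjusted p = 0.00055), 2.98 (SE 0.26, adjusted p = 3.3e-05) and 1.87 (SE 0.24, adjusted p = 2e-05). PAP1 was at 0.804 and 1.35 CPM in Col-0 and 7.45, 5.28 and 5.94 CPM in emb1579-3 (log2 fold change 2.5, SE 0.32, adjusted p = 2.5e-05) and TT8 at 0.433 and 1.45 CPM in Col-0 and 3.25, 3.28 and 4.85 CPM in emb1579-3 (log2 fold change 1.96, SE 0.38, adjusted p = 0.0012). DFR was at 3.89 and TT8 at 3.11 without Col-0 replicate 2, with LDOX, UF3GT and PAP1 moving by less than a factor of 1.5. The early genes TT4 and TT5 did not pass the test, at -0.24 (SE 0.17, adjusted p = 0.37) and -0.16 (SE 0.11, adjusted p = 0.33). MYB12, a factor of the flavonol branch, was lower at 11.7 and 12.5 CPM in Col-0 and 4.4, 5.36 and 5.88 CPM in emb1579-3 (log2 fold change -1.21, SE 0.18, adjusted p = 9.6e-05), and so was MYBL2, a repressor of anthocyanin genes, at -0.96 (SE 0.20, adjusted p = 0.011). The call for MYBL2 was lost without emb1579-3 replicate 3 (adjusted p = 0.052).

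The anthocyanin and iron lists held 15 genes for which the lines differed. Over all genes, 177 differed between emb1579-3 and the libraries labelled emb1579-1 (0.866% of those tested), 88 of them higher in emb1579-3. Members that differed numbered 7 of 22 in the anthocyanin list and 8 of 38 in the iron list. LDOX was at 7.36 to 12.3 CPM in the libraries labelled emb1579-1, and between the lines its log2 difference was 1.96 (SE 0.21, adjusted p = 0.0018). For UF3GT it was 2.34 (SE 0.23, adjusted p = 1.2e-05), for NAS4 0.82 (SE 0.12, adjusted p = 0.00082) and for NRAMP4 0.62 (SE 0.09, adjusted p = 0.0016), all higher in emb1579-3. These 4 differences, and those of AT5MAT and AT4G14090, held in each of 6 fits that left out 1 library of either line. Those of DFR, bHLH39 and AT1G47395 held in 3, 3 and 4 of the 6 fits. Those of PAP1, FRO2 and NAS3 held in 2 each, and that of BHLH101 in 1. The total number of genes that differed ran from 64 without emb1579-1 replicate 2 to 370 without emb1579-1 replicate 1, with 70 without emb1579-1 replicate 3 and 85 without emb1579-3 replicate 3.

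**Figure D4:**
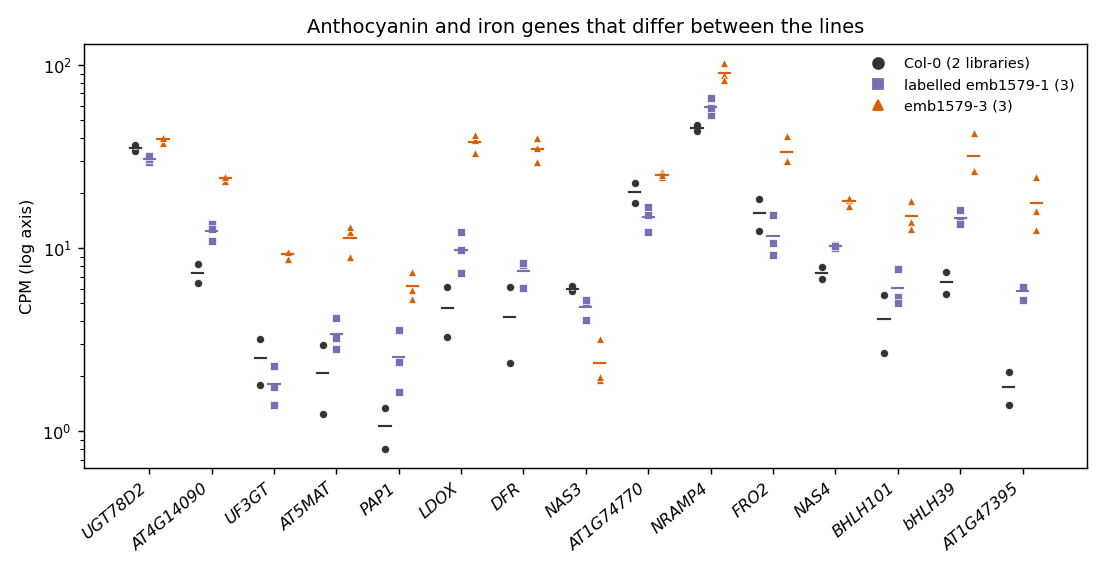
Levels in CPM (log axis) of the 15 anthocyanin and iron genes whose levels differed between the lines, in Col-0 (dark circles), the libraries labelled emb1579-1 (purple squares) and emb1579-3 (orange triangles), with a bar at each group mean. The genes were chosen for this difference. UF3GT and LDOX were at 8.71 CPM and above in every emb1579-3 library, and UF3GT was no higher than 2.27 CPM in the libraries labelled emb1579-1.

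Of the 27 flowering genes tested, 4 were higher (14.8%) and 3 lower (11.1%), near the 10% and 10.5% of all genes, and 1 was higher without Col-0 replicate 2. FLC (chr5:3173382-3179448, minus strand, TAIR10.1), the MADS-box repressor of flowering, was at 0.557 and 0.881 CPM in Col-0 and 5.89, 4.24 and 5.05 CPM in emb1579-3. FT, the gene of the mobile flowering signal, which FLC represses, was at 2.72 and 2.85 CPM in Col-0 and 0.609, 0.879 and 0.192 CPM in emb1579-3, and AGL20, also known as SOC1, was at 43.1 and 41.9 CPM in Col-0 and 20.11, 20.7 and 15.9 CPM in emb1579-3. FLC was higher and FT and AGL20 were lower in each mutant library, with log2 fold changes of 2.78 (SE 0.29, adjusted p = 1.7e-06), -2.35 (SE 0.46, adjusted p = 0.0013) and -1.17 (SE 0.11, adjusted p = 5.9e-07). FLC overlaps an annotated antisense gene, and without the strand setting their reads cannot be told apart. The autonomous pathway genes FCA, FLD and LD, which keep FLC low, did not pass the test, at 0.07 (SE 0.09), 0.06 (SE 0.10) and 0.06 (SE 0.10). FPA, of the same pathway, was called higher (log2 fold change 0.29, SE 0.09, adjusted p = 0.032), a call that held only without emb1579-3 replicate 2 among the 5 fits that left out 1 library. Of the FLC relatives, MAF1, MAF3 and MAF4 did not pass either, at -0.14 (SE 0.12), -0.19 (SE 0.14) and -0.59 (SE 0.40). The related MADS-box genes AGL42 and AGL14 of the root fell, AGL42 from 5.75 and 5.18 CPM in Col-0 to 1.08, 0.40 and 0.511 CPM in emb1579-3 (log2 fold change -3.0, SE 0.40, adjusted p = 3.3e-05) and AGL14 from 8.35 and 9.28 CPM in Col-0 to 0.948, 1.28 and 2.3 CPM in emb1579-3 (log2 fold change -2.52, SE 0.27, adjusted p = 3.2e-06).

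Clock genes were called in both directions. In Arabidopsis, CCA1 and LHY peak at dawn and repress evening genes such as TOC1, ELF4 and GI, and TOC1 in turn represses CCA1 and LHY. Of 24 clock genes, 5 were higher and 10 lower, against 10% and 10.5% of all genes tested, with a median log2 fold change of -0.24. The evening gene ELF4 was at 154 and 154 CPM in Col-0 and 74.5, 67.9 and 69.9 CPM in emb1579-3, and TOC1 at 232 and 223 CPM in Col-0 and 145, 136 and 138 CPM in emb1579-3. The morning gene CCA1 was at 7.42 and 7.36 CPM in Col-0 and 17.402, 17.7 and 15.7 CPM in emb1579-3. The groups did not overlap for any of the 3, with log2 fold changes of -1.12 (SE 0.09, adjusted p = 9e-08), -0.70 (SE 0.08, adjusted p = 9.1e-06) and 1.2 (SE 0.14, adjusted p = 9e-06). LHY, the partner of CCA1, was at 1.18 and 1.87 CPM in Col-0 and 2.44, 2.48 and 2.81 CPM in emb1579-3 and did not pass the test (log2 fold change 0.74, SE 0.32, adjusted p = 0.11). RVE2, a relative of CCA1, was lower at -1.25 (SE 0.12, adjusted p = 6.4e-07). Leaving out Col-0 replicate 1 or 2 left 3 or 1 higher calls, and leaving out emb1579-3 replicate 2 left 2, while the lower calls were 9 to 11. No harvest hour is given, and a difference in it cannot be told apart from a change in these genes.

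Ribosomal protein genes were called higher far more often than lower, by small amounts. Plant ribosomal protein promoters often carry site II elements (TGGGCC), bound by TCP factors, and a telobox (AAACCCTA). Of 320 nuclear genes annotated as ribosomal proteins, organelle ribosomes included, 134 were higher and 7 lower, with a median log2 fold change of 0.29. Over all genes tested 10% were higher and 10.5% lower. The summed level that follows is that of the ribosomal protein genes. Their summed level was 32744 and 33945 CPM in Col-0 and 37324, 38069 and 39625 CPM in emb1579-3, so each mutant library was above both Col-0 libraries. The number called higher was 63 when Col-0 replicate 1 was left out, and 4 were lower without emb1579-3 replicate 3. AT2G37600, of the L36e family, is shown because its promoter (chr2:15775375-15775624, minus strand, TAIR10.1 genome of RefSeq, 250 bases before the start) holds both motifs. In capitals are 3 matches to site II, which begin 124, 74 and 46 bases before the start, and 1 match to the telobox, which begins 24 bases before it, each searched on both strands.
AT2G37600: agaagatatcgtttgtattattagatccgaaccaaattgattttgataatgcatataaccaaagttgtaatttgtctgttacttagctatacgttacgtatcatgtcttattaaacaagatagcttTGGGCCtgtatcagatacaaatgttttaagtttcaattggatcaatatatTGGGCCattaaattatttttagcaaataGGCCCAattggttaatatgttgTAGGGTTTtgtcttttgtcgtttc
AT2G37600 was at 30.3 and 34.8 CPM in Col-0 and 40.8, 42.8 and 49.1 CPM in emb1579-3 (log2 fold change 0.44, SE 0.11, adjusted p = 0.0073), and lost its call without Col-0 replicate 1 (adjusted p = 0.062). Site II was in 45.6% of the 320 promoters and in 16.2% of the 20413 promoters of tested genes, and the telobox in 14.1% and 3.64%. Site II was in 53.0% of the 134 genes called higher and in 41.3% of the 179 not called, and the telobox in 14.2% and 14.5%. These shares are descriptions with no test.

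Within the family, AT3G16780, of the L19e family, was at 87 and 96.7 CPM in Col-0 and 137, 135 and 161 CPM in emb1579-3, a log2 fold change of 0.65 (SE 0.09, adjusted p = 6.5e-05). The 7 lower genes included AT5G24490, annotated as a 30S ribosomal protein, at 719 and 573 CPM in Col-0 and 345, 421 and 376 CPM in emb1579-3 (log2 fold change -0.76, SE 0.10, adjusted p = 3.9e-05), and the plastid-specific gene PSRP6 at -0.39 (SE 0.10, adjusted p = 0.007), beside RPL18AA of the cytosolic type at -0.49 (SE 0.15). Split by name after the values were seen, 56 of 111 genes with eukaryote-type names were higher and 2 lower. Of these, 26 were higher without Col-0 replicate 1 and 36 without emb1579-3 replicate 3, and the lower calls were 4 without emb1579-3 replicate 1 and 1 without any other library but Col-0 replicate 2. Of 48 nucleolar genes, 19 were higher and 1 lower (2 lower without Col-0 replicate 2), with a median log2 fold change of 0.29. FIB2, for the rRNA methylase fibrillarin, was at 29.3 and 38.2 CPM in Col-0 and 64.7, 58.5 and 70.2 CPM in emb1579-3 (log2 fold change 0.93, SE 0.13, adjusted p = 0.0002), and NOP56, of the same snoRNA particle, rose by 0.76 (SE 0.10). NUC-L2, a second nucleolin gene that is normally near silent beside NUC-L1, was at 1.86 and 2.44 CPM in Col-0 and 10.2, 12.2 and 10.9 CPM in emb1579-3 (log2 fold change 2.35, SE 0.21, adjusted p = 2.9e-07). The groups do not overlap. In the libraries labelled emb1579-1 NUC-L2 had a log2 fold change of 2.4. For the lists above and the families that follow, the shares over all genes tested were 10% higher and 10.5% lower. Of 109 translation factor genes, 24 were higher and 5 lower, with 15 higher without Col-0 replicate 1 and 3 lower without emb1579-3 replicate 3. Of 28 heat shock and chaperone genes, 9 were higher and 1 lower, and without Col-0 replicate 1, 3 were higher and 2 lower.

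**Figure D5:**
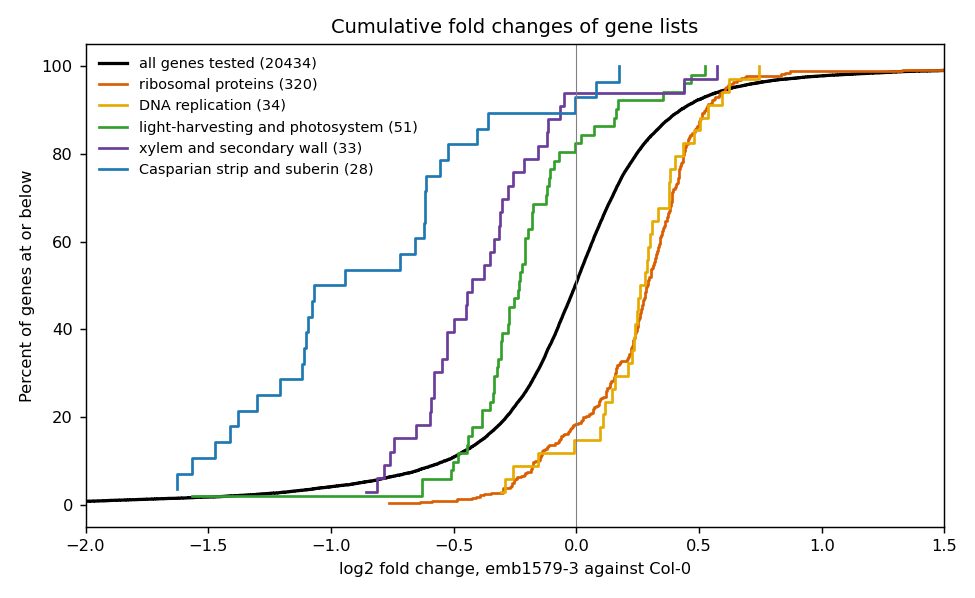
Cumulative share of genes at or below each log2 fold change (emb1579-3 against Col-0) for all genes tested and for 5 gene lists, with the number of genes in brackets. The ribosomal protein and DNA replication curves lie to the right of all genes, with medians of 0.29 and 0.27, and the barrier curve lies to the left, with a median of -1.01.

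Genes of DNA replication gave a few small rises. Replication is licensed by the ORC and MCM complexes and is under E2F factors, which bind TTTCCCGC and its variants. Of 34 replication genes, 9 were higher and 0 lower, with a median log2 fold change of 0.27, with 3 higher without Col-0 replicate 1 and 4 without emb1579-3 replicate 3. Over all genes tested 10% were higher and 10.5% lower. MCM5, a subunit of the replicative helicase, is shown for its E2F match, in capitals, which begins 19 bases before the start (chr2:3527501-3527750, minus strand, TAIR10.1 genome of RefSeq).
MCM5: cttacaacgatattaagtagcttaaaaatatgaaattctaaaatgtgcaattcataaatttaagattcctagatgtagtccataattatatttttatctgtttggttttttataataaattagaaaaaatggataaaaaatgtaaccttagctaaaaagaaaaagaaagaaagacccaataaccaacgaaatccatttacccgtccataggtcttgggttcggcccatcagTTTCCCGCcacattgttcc
MCM5 was at 24.4 and 26.7 CPM in Col-0 and 34.2, 31.5 and 35.6 CPM in emb1579-3 (log2 fold change 0.40, SE 0.10, adjusted p = 0.0083), and lost its call without Col-0 replicate 1 (adjusted p = 0.065). TTTCCCGC, searched on both strands, was in 20.6% of the 34 promoters and in 0.588% of all promoters searched. TSO2, a ribonucleotide reductase subunit gene that supplies deoxynucleotides, was at 46.6 and 46.4 CPM in Col-0 and 86.3, 72.5 and 74.7 CPM in emb1579-3 (log2 fold change 0.74, SE 0.10, adjusted p = 4.6e-05). ORC1B and PCNA1 rose by 0.50 (SE 0.13) and 0.54 (SE 0.14), calls also lost without Col-0 replicate 1. Of 39 mitotic genes, 0 were called in either direction at an adjusted p under 0.05 by edgeR or by DESeq2, and at an unadjusted p under 0.05 edgeR put 3 higher and 2 lower.

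DNA damage genes gave a short list of rises, 5 of 24 higher (4 without either Col-0 library) and 0 lower. The shares over all genes tested were 10% higher and 10.5% lower. NAC044, a factor that arrests the cell cycle after DNA damage, was at 0.804 and 1.45 CPM in Col-0 and 5.82, 6.16 and 7.79 CPM in emb1579-3. GMI1, a repair gene induced by breaks, was at 7.79 and 9.43 CPM in Col-0 and 22.1, 19.7 and 23.1 CPM in emb1579-3, and the repair gene BRCA1 at 12.2 and 13.4 CPM in Col-0 and 17.2, 18.5 and 22 CPM in emb1579-3. All 3 were higher in each mutant library, with log2 fold changes of 2.52 (SE 0.26, adjusted p = 2.2e-06), 1.32 (SE 0.13, adjusted p = 1.1e-06) and 0.59 (SE 0.15, adjusted p = 0.0078). In the libraries labelled emb1579-1 the log2 fold changes were 2.28, 1.3 and 0.31.

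Of 44 splicing and RNA processing genes, 1 was higher (2.27%, against 10% of all genes tested) and 0 lower, and that gene, SmD3 (log2 fold change 0.32, SE 0.11, adjusted p = 0.044), lost its call without Col-0 replicate 1 and without emb1579-3 replicate 2 or 3, while 3 genes were called without Col-0 replicate 2. A list of 16 genes held EMB1579 itself, its partners and the chromatin complexes near them. EMB1579 was the 1 lower gene, so no partner was lower. MSI3 was the 1 higher (log2 fold change 0.39, SE 0.14, adjusted p = 0.05), a call that held only without emb1579-3 replicate 1 among the 5 fits that left out 1 library. Beside these stand 10% higher and 10.5% lower over all genes tested. The RITF1 gene, AT3G06590 in the annotation, was at 29.5 and 30.2 CPM in Col-0 and 27.2, 28.6 and 29.4 CPM in emb1579-3. Each mutant library was slightly below both Col-0 libraries, and the gene did not pass the test (log2 fold change -0.07, SE 0.11, adjusted p = 0.7). In the salt list, 2 of 23 genes were higher (8.7%, against 10% of all genes tested) and 5 lower (21.7%, against 10.5%), and each fit with 1 library left out gave 1 higher. SOS1, the sodium exporter gene of the plasma membrane, was at 33.5 and 30.2 CPM in Col-0 and 33.7, 27.7 and 23.1 CPM in emb1579-3 and did not pass the test (log2 fold change -0.18, SE 0.14, adjusted p = 0.42). The vacuolar exchanger gene NHX1 was lower, from 72 and 62.3 CPM in Col-0 to 52.6, 50.4 and 45.3 CPM in emb1579-3 (log2 fold change -0.44, SE 0.10, adjusted p = 0.0043), and without Col-0 replicate 1 its adjusted p was 0.076 and 3 genes of the list were lower. RBOHD, a gene of reactive oxygen production, rose from 89.3 and 86.5 CPM in Col-0 to 149.6, 159 and 163 CPM in emb1579-3 (log2 fold change 0.84, SE 0.08, adjusted p = 8.3e-07).

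The root stem cell niche is set by SHR and SCR around the quiescent centre and by PLT factors, with WOX5 marking the centre. Of 26 regulators tested, 3 were higher and 3 lower, 11.5% in each direction and so near the 10% and 10.5% of all genes, with a median log2 fold change of 0.04. Without Col-0 replicate 1, 4 were higher, and without Col-0 replicate 2, 2 were lower. AIL6, an AP2 factor of the PLT family, was at 9.03 and 11.3 CPM in Col-0 and 19.7, 20 and 23.1 CPM in emb1579-3 (log2 fold change 1.04, SE 0.14, adjusted p = 3.3e-05), and MYB56, also called BRAVO, which restrains divisions there, was at 1.92 and 2.28 CPM in Col-0 and 4.06, 4.4 and 4.79 CPM in emb1579-3 (log2 fold change 1.07, SE 0.24, adjusted p = 0.0033). UPB1, which sets where dividing cells start to elongate, was at 5.32 and 5.29 CPM in Col-0 and 2.98, 1.52 and 1.85 CPM in emb1579-3 (log2 fold change -1.31, SE 0.26, adjusted p = 0.0015). All 3 separate the groups with no overlap. The largest change in this list was that of AGL42, given above, at -3.0 (SE 0.40). The GRAS factor gene AT5G41920 was also lower, at -0.45 (SE 0.13), and SCL3 was higher, at 0.50 (SE 0.12). SHR, SCR and PLT1 did not pass the test, at 0.29 (SE 0.12), 0.08 (SE 0.11) and 0.10 (SE 0.27). WOX5 was at 0.124 and 0.415 CPM in Col-0 and 0.474, 0.879 and 1.02 CPM in emb1579-3, with 2 and 8 raw counts in Col-0 and 7, 11 and 16 in emb1579-3, and did not pass the test (log2 fold change 1.48, SE 0.66, adjusted p = 0.13).

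Photosynthesis genes were called lower more often than higher, while over all genes tested 10% were higher and 10.5% lower. Of 51 light-harvesting and photosystem genes, 3 were higher and 21 lower, with a median log2 fold change of -0.23, and 7 were lower without Col-0 replicate 1 and 12 without emb1579-3 replicate 3, while 1 was higher without Col-0 replicate 2. Lhca5, a minor antenna protein gene of photosystem I, fell most in this list, at 64.6 and 67.5 CPM in Col-0 and 20.7, 27 and 19.4 CPM in emb1579-3 (log2 fold change -1.57, SE 0.11, adjusted p = 3.6e-08), and it overlaps another gene. PSAF, a photosystem I subunit gene, was at 3150 and 2804 CPM in Col-0 and 1902, 2005 and 1874 CPM in emb1579-3 (log2 fold change -0.63, SE 0.09, adjusted p = 9.9e-05). Of the 83 genes above 1000 CPM, 8.43% were higher and 30.1% lower. By gene structure, 8.48% of 3053 intronless genes were higher and 13.1% lower, against 10.3% and 8.01% of 2323 genes with at least 12 introns. Calls were spread over the 5 chromosomes, with 9.77% to 10.3% of genes higher and 9.71% to 11.3% lower on each.

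A pair of places on the chromosomes held 5 neighbouring tested genes called in the same direction, found after the values were seen. AT3G21010 to AT3G21050 (chr3:7366210-7376420, TAIR10.1), all annotated as pseudogenes, were all higher, with log2 fold changes from 0.91 to 2.005. AT4G08100, AT4G08109, AT4G08112, AT4G08114 and AT4G08115 (chr4:5049024-5083590), pseudogenes as well, were all lower. AT4G08114 was at 1.42 and 2.75 CPM in Col-0 and had no count in any emb1579-3 library, and AT4G08112 was at 3.34 and 2.9 CPM in Col-0 and 0.0677, 0 and 0.128 CPM in emb1579-3. The other 4 of these had log2 fold changes from -5.32 to -2.20. In the libraries labelled emb1579-1 the log2 fold changes were 0.75 to 2.38 in the first place and -4.93 to -1.91 in the second, and none of the 10 genes differed between the lines. Pseudogenes have close copies elsewhere, so their counts are uncertain.

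Reads shared between overlapping genes limit some single values. Among the genes named above, leaving RHD2 aside, those that overlap another annotated gene are AIL6, APR1, APR2, APR3, APS4, ARR6, AT3G06590, AT5G24490, BHLH101, bHLH38, CASP1, CESA4, COI1, EXPA7, FAR4, FER1, FIB2, FLC, FLD, FPA, GMI1, GSO1, IRX3, Lhca5, MSI3, MYC2, NOP56, NRT1.5, NRT1.8, PAP17, PHR1, PYK10, RPL18AA, SULTR4;2, TSO2, TT4 and XCP1. The counting tool and its strand setting are not stated in what was used, so reads of overlapping neighbours cannot be told apart for these genes.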

How the data were processed

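RNA-seq was run on whole seedlings of Col-0, emb1579-1 and emb1579-3, with 3 libraries each. The deposited table holds raw read counts per locus; per the submitters' processing notes, HISAT2, Cufflinks, Cuffdiff and FastQC were used with the build TAIR10, with no role or version given. The counting tool and the strand setting are not stated. Column names were matched to the labels, and the columns whose number is in no label were taken as emb1579-3 by elimination. Of 33602 loci, 33323 nuclear ones were kept, because organelle genes take a large share of the counts. Symbols, products and positions came from the RefSeq annotation of TAIR10.1, which matched 32835 loci.

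Counts were tested with edgeR 4.0.16 in R 4.3.3. The fit used TMM scaling, a filter on low counts (filterByExpr), a quasi-likelihood F-test and Benjamini-Hochberg adjustment at 0.05 over 20434 genes. Col-0 replicates 1 and 2 and both mutant lines shared one estimate of the spread (common biological coefficient of variation 0.0884), with 5 residual degrees of freedom. Col-0 replicate 3 was left out for its depth and its profile. SE is that of the log2 fold change, derived from the test as its absolute value divided by the square root of F. DESeq2 1.42.0 gave an alternative scaling and test. Tables and plots were made with Python 3.11.15, pandas 2.3.3, numpy 2.4.6 and matplotlib 3.10.9. The test was first checked on simulated counts.

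The gene lists, families and tests were chosen with earlier results of these data known. Named genes followed a rule: EMB1579, the 12 highest and 12 lowest log2 fold changes, the 10 largest rises and falls in CPM, each under limits on level, overlap and library order, up to 4 called and 2 uncalled genes per list, and all tested members of the stem cell niche, flowering and salt lists. That gave 446 genes, and 55 more were added after their values were seen, as were 4 families, the split of the ribosomal proteins and the neighbouring runs. Same-numbered libraries of the groups deviated with r = -0.03 and -0.10, which gave no sign of pairing by replicate number. The deviations of the 2 Col-0 libraries mirror each other, so these values cannot settle whether the numbers pair the libraries. Alternatives left out each library, took in all 9, blocked by number, and changed the scaling, filter, gene set and test. The comparison between the lines without single libraries was added after seeing the data.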

Additional observations from a re-analysis of the deposited data

Results flagged for a closer look

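Of the 177 genes that differed between the lines, 36 are among the named genes and are given below. They stood out because the direct test of emb1579-3 against the libraries labelled emb1579-1 passed an adjusted p of 0.05 (edgeR quasi-likelihood, Benjamini-Hochberg over all genes tested). Each value is the log2 level in emb1579-3 minus that in the libraries labelled emb1579-1. The gene under study came first, with EMB1579 at -5.04.

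Among the named anthocyanin genes the differences were UF3GT at 2.34, DFR at 2.23, LDOX at 1.96, AT5MAT at 1.76, PAP1 at 1.31 and AT4G14090 at 0.96. Enzymes of the late pathway and the factor PAP1 were thus higher in emb1579-3. Among the named iron genes they were AT1G47395 at 1.6, FRO2 at 1.52, BHLH101 at 1.31, bHLH39 at 1.13, NAS4 at 0.82, NRAMP4 at 0.62 and NAS3 at -1.01. These iron genes were higher in emb1579-3, with the exception of NAS3. Among stress and defence regulators they were ORA47 at -1.09, WRKY40 at -0.69, WRKY70 at 1.08, RHL41 at -0.68, ERF11 at -0.596, ERF104 at 0.35 and STZ at -0.56, with both directions present. The remaining named genes higher in emb1579-3 were CYP71A13 at 1.25, CCA1 at 0.61, GSTU25 at 0.55, CYP707A3 at 0.54, TSO2 at 0.41 and GBSS1 at 0.39. The remaining named genes lower in emb1579-3 were GASA1 at -1.1, AT5G39580 at -0.72, AT5G62360 at -0.702, RVE2 at -0.52, AT1G22690 at -0.48, CAT3 at -0.46, XTH4 at -0.45, DELTA-TIP at -0.44 and APX1 at -0.42.

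Of these 36 differences, 13 passed the threshold in each of 6 fits that left out 1 mutant library, namely EMB1579, UF3GT, LDOX, AT5MAT, AT4G14090, NAS4, NRAMP4, GASA1, ORA47, WRKY40, CYP71A13, GSTU25 and AT5G62360. That of WRKY70 passed in none of the 6, and 6 others passed in 1. The part of single libraries in the rest was not tested further.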

How the results depend on the processing

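The main numbers were 2043 genes higher and 2153 lower. With all 9 libraries they were 69 and 71, and with 1 library left out the higher genes ranged from 1304 to 1741 and the lower from 1510 to 3060. The widest imbalance came without Col-0 replicate 1, where 29.9% of calls were higher against 48.7% in the full comparison. With a replicate block, though pairing by number was not established, 1920 genes were higher and 1937 lower. Root hair genes called higher then went from 2 to 8, extensins from 5 to 8 and iron genes from 16 to 19, while of the named genes 13 lost their call, LOX2, MSI3 and SmD3 among them, and 11 gained one. Without a filter on low counts the median over all genes moved to -0.16, with 2611 higher and 2299 lower. DESeq2's test gave 1797 and 1799, DESeq2 scaling 2034 and 2141, a minimum of 10 CPM 1532 and 1484, genes without overlaps 1445 and 1534, and the 5 libraries alone 2264 and 2351. Between the lines the number ran from 64 to 370 with 1 library left out and was 256 with the block, against 177; these fits were chosen after seeing the data.

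With all 9 libraries, 23 named genes changed sign, to log2 fold changes of PIP1C 0.065, PSB27 0.034, SEX1 0.066, NRT1.1 0.033, GI 0.13, LHCA3 0.18, GASA1 0.013, NIR1 0.11, PHO2 0.054, PSRP5 0.088, LHCA2 0.27, TUB9 0.25, LHCB4.1 0.22, PSRP6 0.070, TUB8 0.13, RBCS3B 0.22 and TUB4 0.24, and to CYP71A13 -2.79, PAP17 -2.25, NRT2.6 -2.34, AT3G46730 -0.11, BCS1 -0.90 and AT4G14090 -3.69. The cause was not tested. Of 328 called named genes, 259 kept the call in all 5 fits that left out 1 library of the comparison.

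Limits are 2 Col-0 libraries of usable depth, low counts spread over silent genes in Col-0 replicate 2, an unstated strand setting, 1 allele with columns assigned by elimination, and whole seedlings.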
